A study of Arabidopsis thaliana with 12 samples.

Results

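The genes described here read highest in seedlings of the scrm-D;mute double mutant of Arabidopsis thaliana. A probe set was a member when its mean log2 value over the scrm-D;mute arrays lay at least 1.5 above the mean of each of the other genotypes measured, scrm-D, spch and wild type (WT). Of 22746 probe sets, 194 passed that margin, 7 of them were left out by name (SPCH, MUTE, AT5G07260, PID2, AT5G08460, EXPA9 and EXPA16), and 187 remained. The platform annotation pairs 103 of the 187 with 1 gene each, of which 101 are protein coding and 2, RSU1 and AT4G07510, are pseudogenes. The other 84 are not listed in that annotation and are counted here without a name. No member gene had a further probe set among those paired with a single gene. Probe sets that are unlisted or paired with several genes could not be searched for one. Because the scrm-D;mute means chose the members, their values in scrm-D;mute are given as a description, without a test.

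Stomata form from a short epidermal lineage that begins with an asymmetric division of a protodermal cell. The smaller daughter, the meristemoid, renews itself through further asymmetric divisions before it becomes a guard mother cell, which divides once more into the paired guard cells around the pore. The bHLH factors SPCH, MUTE and FAMA act in that sequence, at entry into the lineage, at the end of the meristemoid state and at the last division, and each works with the bHLH partners SCRM and SCRM2.

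Whole seedlings of the Col-0 ecotype were compared 5 days after germination, with 3 arrays per genotype. All samples shared 2 days of cold stratification at 4 °C, growth at 21 °C under 18 h of light and 6 h of dark, and harvest at 1 pm. The scrm-D;mute seedlings carry the dominant scrm-D allele together with loss of MUTE, and the labels describe their epidermis as almost wholly meristemoids. The scrm-D seedlings carry that allele with MUTE intact (guard cells throughout, per the labels), spch seedlings lack SPCH function (pavement cells alone), and WT seedlings served as the control. The scrm-D allele is thus shared by scrm-D;mute and scrm-D, and the sources used here give neither allele numbers nor the number of seedlings per sample. In RNA from whole seedlings, a larger share of cells of a type and more RNA per cell cannot be told apart.

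A value here is an expression value on the log2 scale, so 1 unit is a factor of 2. Array medians lay between 6.39 and 6.53, and across probe sets arrays correlated with r of 0.986 to 0.995 within a genotype and 0.935 to 0.977 between genotypes. Bacterial control transcripts on arrays that lacked them read 4.00 in the median, and their 95th percentile, 4.99, is used here as the background level. Of the 8 meristemoid and lineage markers, 2 had a probe set that the annotation pairs with a single gene. The others could not be looked up, since 8730 of 22746 probe sets are unlisted there and 503 are paired with several genes. SPCH read 10.56 to 10.89 and MUTE 10.61 to 11.00 in scrm-D;mute, above every other array. MUTE is thus highest in the genotype labelled as its mutant. The labels do not say how the mutant allele alters the transcript, so this probe set does not check the loss of MUTE function. SPCH read 5.11 to 5.41 in spch, below the WT arrays at 6.15 to 6.71. FAMA, the guard cell factor, read 5.64 to 6.10 in scrm-D;mute, 9.41 to 9.63 in scrm-D, 5.64 to 6.36 in spch and 6.79 to 7.07 in WT. The summed values of the 5 measured photosynthesis genes were 62.0 to 62.9 in scrm-D;mute, 61.4 to 63.1 in scrm-D, 64.8 to 65.9 in spch and 65.5 to 66.0 in WT, and their part in the results was not tested. The 25S rRNA control, a read-out of labelled ribosomal RNA, spanned 6.96 to 11.06 in scrm-D;mute, 8.98 to 10.07 in scrm-D, 8.66 to 11.04 in spch and 6.56 to 7.50 in WT, so scrm-D and spch differ from WT in it without overlap.

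Member levels in scrm-D;mute ranged from 5.88 to 13.16 with a median of 8.88. The medians of the member means in the other genotypes were 6.74 in scrm-D, 5.56 in spch and 5.95 in WT. The margin over the next highest genotype ran from 1.52 to 4.56, with a median of 2.04. The next highest genotype was scrm-D for 150 members, spch for 19 and WT for 18. In 186 of 187 members the lowest scrm-D;mute array read above all 9 arrays of the other genotypes. The margin rule largely fixes that count in advance, and it was not set against all probe sets. The members just inside the margin were AT5G66440 and AT5G23910 at 1.52 and AT5G51030 at 1.53, and those just outside were AT4G28260, AT4G34500 and 1 unlisted probe set, at 1.498, 1.497 and 1.495.

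**Figure D1:**
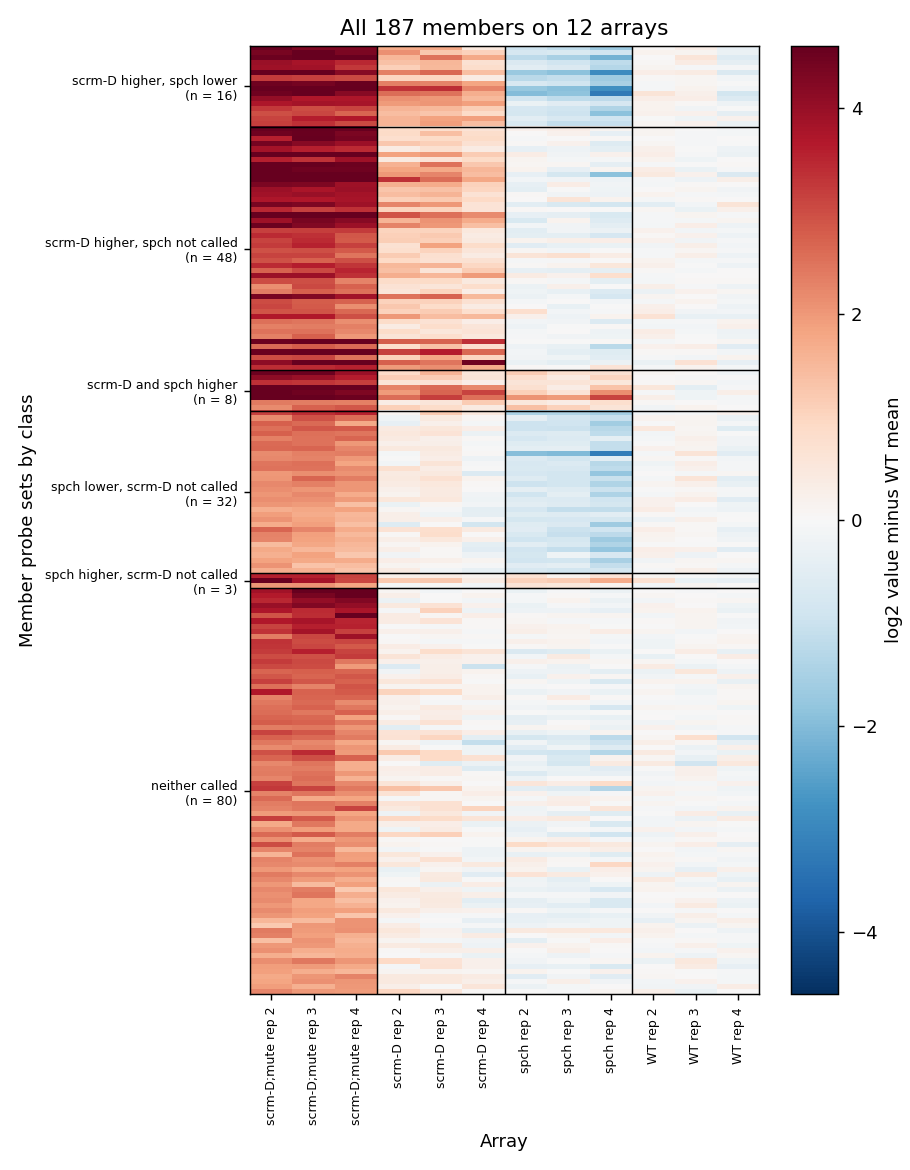
Every member (rows, 187 probe sets) on every array (columns, 3 per genotype), coloured by its log2 value minus the WT mean of that member. Values past the ends of the colour scale take the end colour. Rows are grouped by the calls of scrm-D and spch against WT, and within a group ordered by margin. The 3 scrm-D;mute columns are red in every group by construction. By the calls against WT, 72 members were raised in scrm-D, 8 of them also raised in spch. In spch 48 were lowered, 16 of them also raised in scrm-D. A further 3 were raised in spch alone, and 80 had neither call.

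Some of the largest margins belonged to genes that were near background in the other genotypes. Others did not, and AT3G14560 averaged 11.01 ± 0.31 in scrm-D;mute, 7.69 ± 0.51 in scrm-D, 7.55 ± 0.25 in spch and 6.68 ± 0.10 in WT. AT4G28420, which encodes a tyrosine aminotransferase-like enzyme, read 8.00, 9.08 and 8.97 in scrm-D;mute, 4.19, 4.00 and 4.16 in scrm-D, 3.80, 4.08 and 3.85 in spch and 4.14, 4.08 and 4.15 in WT. Its scrm-D;mute mean was at least 12.9-fold above that of WT, a fold taken against the background level because the 9 other arrays lay under it. AT2G22320 read 7.38, 8.09 and 8.30 in scrm-D;mute, 4.00, 3.77 and 3.88 in scrm-D, 3.66, 3.79 and 3.67 in spch and 3.82, 3.73 and 3.63 in WT. Again only the scrm-D;mute arrays rose above background, at least 7.63-fold in the mean. AT5G38170 and its chromosomal neighbour AT5G38160 encode proteins of the lipid transfer family. AT5G38170 read 7.04, 7.54 and 8.73 in scrm-D;mute, 4.52, 4.22 and 4.44 in scrm-D, 4.19, 4.25 and 4.26 in spch and 4.02, 4.27 and 4.13 in WT, and AT5G38160 averaged 7.79 ± 0.77 in scrm-D;mute, 4.73 ± 0.05 in scrm-D, 4.67 ± 0.10 in spch and 4.69 ± 0.13 in WT (SD, n = 3 each). These were also the members with the widest spread in scrm-D;mute, and in both the order of the arrays there was replicate 4 highest and replicate 2 lowest. The class III peroxidase gene AT2G24800 averaged 7.59 ± 0.25 in scrm-D;mute, 4.18 ± 0.05 in scrm-D, 4.31 ± 0.12 in spch and 4.18 ± 0.12 in WT, and the bHLH gene AT4G00870 7.52 ± 0.23 in scrm-D;mute, 4.63 ± 0.18 in scrm-D, 4.50 ± 0.06 in spch and 4.45 ± 0.16 in WT.

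In total 29 members (15.5%), 20 of them named, had all 3 other means under the background level, against 27.8% of all probe sets. For such members the differences between scrm-D, spch and WT cannot be read as levels.

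**Figure D2:**
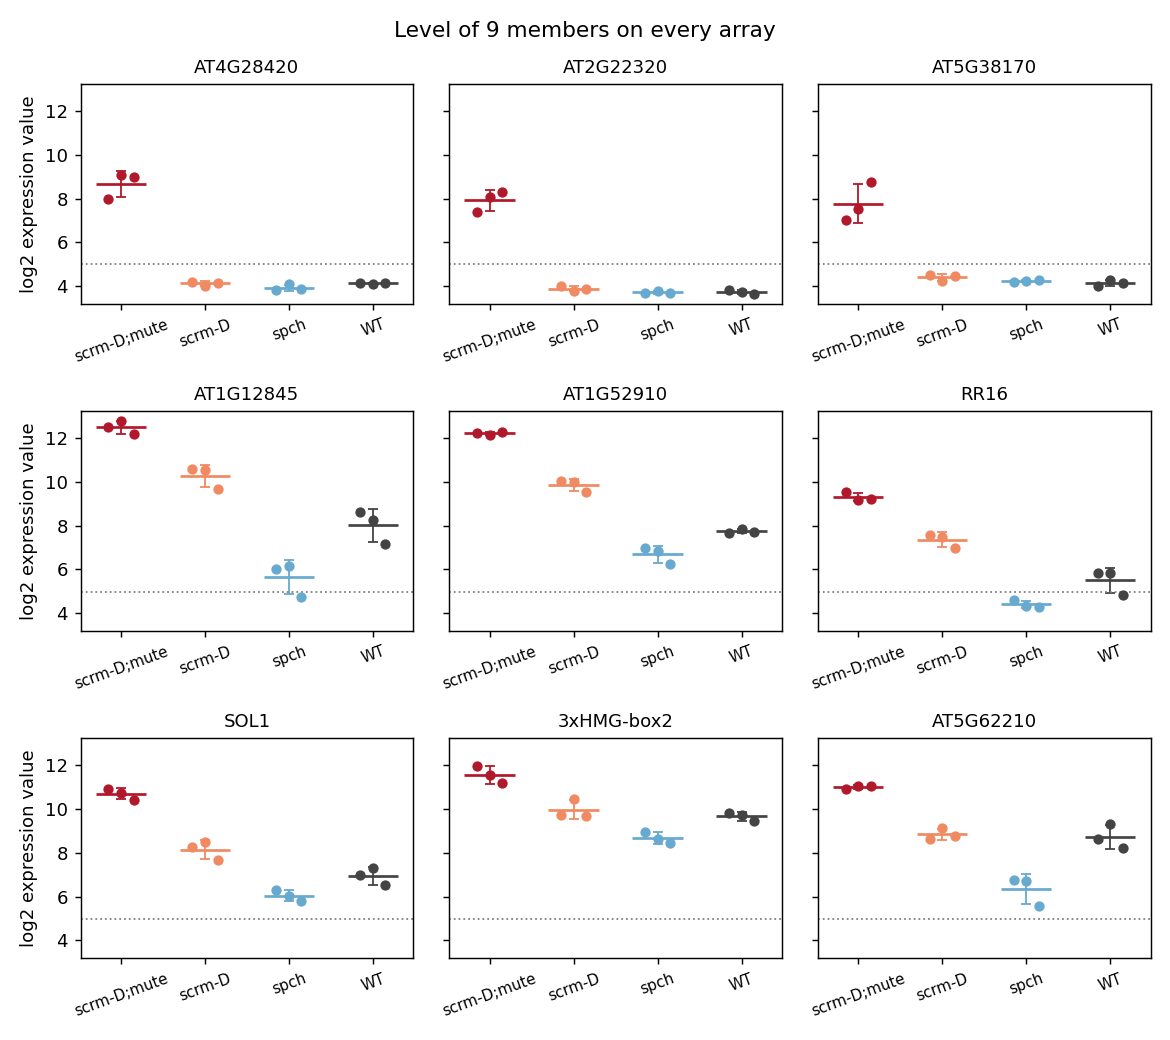
The log2 expression value of 9 members on each of the 12 arrays, with the genotype mean (bar) and SD (whiskers, n = 3) and the background level of 4.99 (dotted). The top row shows genes near background outside scrm-D;mute. In the lower rows AT1G12845, AT1G52910, RR16 and SOL1 had graded levels, from high to low in scrm-D;mute, scrm-D, WT and spch. For 3xHMG-box2 and AT5G62210 the scrm-D and WT arrays overlapped, and the spch arrays lay below both.

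The rule bounded the scrm-D, spch and WT means only from above and alike, so the comparisons among these genotypes were tested, with a fit across all 22746 probe sets and adjustment over all of them. A member was called at an adjusted p under 0.05. In scrm-D, whose epidermis is described as guard cells, 72 members (38.5%) were higher than in WT, against 6.76% of all probe sets called higher. No member was called lower by limma, against 7.39% of all probe sets, and none was lower at an unadjusted p under 0.05, which 13.3% of all probe sets met. By that measure 94 were higher (12.9% of all). The median difference was 0.40 over the members and −0.01 over all probe sets. The called differences ran from 0.49 to 3.22, and 45 were at least 2-fold (2.56% of all probe sets). In all 72 the 3 scrm-D arrays lay above the 3 WT arrays. A call itself favours such a separation, which was not counted over all probe sets. All 3 WT values lay under the background level for 13 of the 72, and both genotypes for 1. The call held for 55 of the 72 in all 12 fits that left out 1 array. With the 25S rRNA value as a covariate 47 members were called, and 2267 of all probe sets in place of 3220. That value separates scrm-D and spch from WT without overlap, so covariate and genotype cannot be fully told apart. A call that ended under it did not always do so through a smaller difference. In scrm-D against WT, the difference of AT2G43870 went from 0.85 to 0.91 as its call ended, and that of SPCH from 1.21 to 0.97.

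In spch, which does not start the lineage, 48 members (25.7%) were lower than in WT, against 9.93% of all probe sets. A further 11 (5.88%) were higher, against 9.6% of all probe sets. The member median was −0.22, and that of all probe sets was −0.00448. Called falls ran from −2.38 to −0.52, and 20 were at least 2-fold (2.41% of all probe sets). All 3 spch values lay under the background level for 5 of the 48, and both genotypes for 1. Of the 48 falls 27, and of the 11 rises 3, held in all 12 fits that left out 1 array. Without WT replicate 3 the calls were 30 lower and 5 higher, without spch replicate 4 they were 28 and 5, and with the 25S rRNA covariate 32 and 2. Calls over all probe sets were 3085, 2955 and 2108 under those settings and 4442 in the fit of all arrays without the covariate. Between scrm-D and spch directly, 114 members were higher in scrm-D (15.3% of all probe sets) and 1, AT5G51030, was lower (14.7%), with both its means under the background level. The means stood in the order spch, WT, scrm-D from low to high for 119 members (63.6%) and for 21.1% of all probe sets. Both counts include probe sets under the background level, where an order cannot be read. All 3 means lay under it for 15.5% of members and 27.8% of all probe sets. The scrm-D and spch comparisons share the WT arrays, so their values are set side by side below and not correlated.

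**Figure D3:**
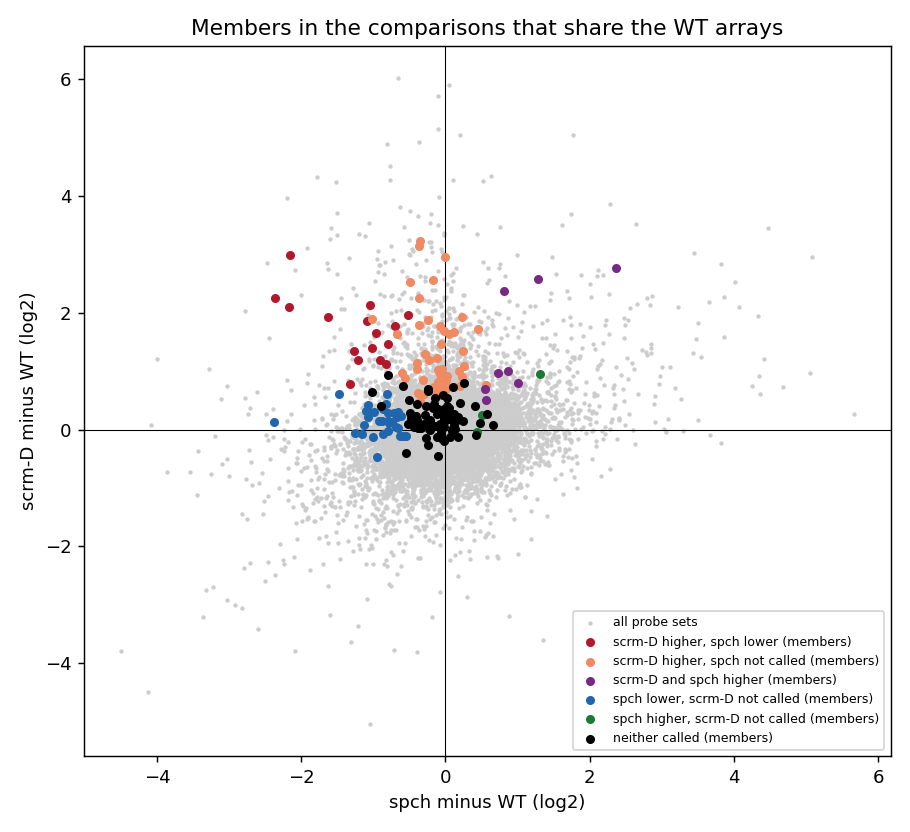
The log2 difference of scrm-D minus WT (vertical) against spch minus WT (horizontal) for all 22746 probe sets (grey) and the 187 members, coloured by the 2 calls. WT enters both axes. Members lie mostly above the horizontal line (164 of 187) and left of the vertical one (137 of 187).

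Taken by both calls, 16 members were higher in scrm-D and lower in spch, against 1.03% of all probe sets with those calls, 48 were higher in scrm-D alone (4.44%), and 8 were higher in both (1.29%). Another 32 were lower in spch alone (6.89%), 3 were higher in spch alone (7.52%), and 80 had neither call (71.4%). A call in 1 comparison and none in the other does not show that the differences themselves differ, and that was not tested.

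**Figure D4:**
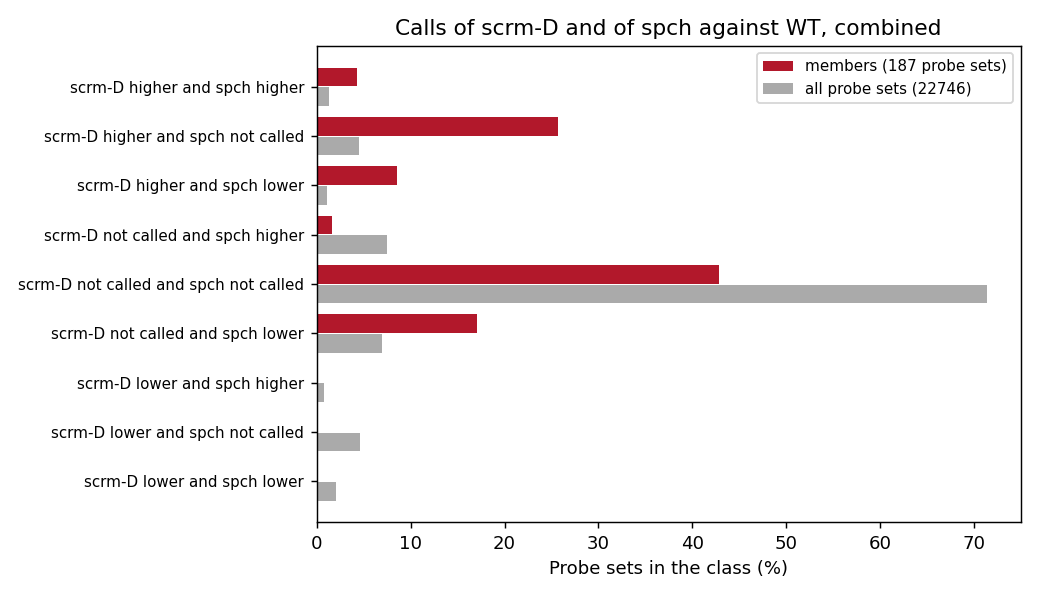
Share of probe sets in each combination of calls against WT, for the 187 members (red) and all 22746 probe sets (grey). The members hold a larger share than all probe sets in the rows with scrm-D higher and in the row with spch lower and scrm-D not called, and none in the rows with scrm-D lower.

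The 11 named members that were higher in scrm-D and lower in spch included some of the brightest. AT1G12845, of unknown function, read 12.49, 12.79 and 12.20 in scrm-D;mute, 10.59, 10.52 and 9.68 in scrm-D, 6.03, 6.18 and 4.75 in spch and 8.61, 8.26 and 7.17 in WT. The 4 genotypes did not overlap. The scrm-D mean was 4.76-fold above WT (log2 difference 2.25 ± 0.41 SE, adjusted p = 0.00300) and the spch mean 5.13-fold below it (log2 difference −2.36 ± 0.41 SE, adjusted p = 0.00187). AT1G52910, which encodes a DUF1218 protein, read 12.23, 12.13 and 12.29 in scrm-D;mute, 10.04, 10.01 and 9.56 in scrm-D, 7.00, 6.84 and 6.26 in spch and 7.68, 7.84 and 7.71 in WT, again with no overlap between genotypes. Its scrm-D difference was 2.13 ± 0.18 SE (adjusted p = 1.01e-05) and its spch difference −1.04 ± 0.18 SE (adjusted p = 0.00174). AT3G26960 encodes a secreted protein of the pollen Ole e 1 and extensin family and read 11.10, 11.24 and 11.60 in scrm-D;mute, 8.11, 9.08 and 8.31 in scrm-D, 5.38, 5.08 and 4.39 in spch and 6.59, 7.15 and 6.00 in WT. Replicate 4 was the lowest spch and the lowest WT array, yet the spch arrays all lay below the WT arrays. It differed by 1.92 ± 0.32 SE (adjusted p = 0.00177) in scrm-D and by −1.63 ± 0.32 SE (adjusted p = 0.00398) in spch, the second with adjusted p = 0.0642 under the 25S rRNA covariate.

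AT1G33930, which encodes an AIG1-type GTPase, read 9.19, 9.70 and 9.15 in scrm-D;mute, 6.90, 6.04 and 5.85 in scrm-D, 4.03, 4.11 and 3.90 in spch and 4.96, 4.95 and 4.52 in WT. It was higher in scrm-D (log2 difference 1.46 ± 0.24 SE, adjusted p = 0.00161), and its lower call in spch (log2 difference −0.80 ± 0.24 SE, adjusted p = 0.0356) compares values that all lie under the background level. That call ended without any 1 of WT replicates 2 and 3 and the 3 spch arrays, with adjusted p from 0.0607 to 0.113. AT1G47410 averaged 9.95 ± 0.06 in scrm-D;mute, 8.12 ± 0.08 in scrm-D, 5.64 ± 0.23 in spch and 6.16 ± 0.20 in WT, a rise in scrm-D of 1.95 ± 0.13 SE (adjusted p = 2.26e-06) and a spch difference of −0.52 ± 0.13 SE (adjusted p = 0.0158). The fall ended without WT replicate 2 (adjusted p = 0.0652), WT replicate 3 (0.0554) or spch replicate 4 (0.0705), or when only the arrays of spch and WT were fitted (0.0521). For AT5G46230, a DUF538 gene averaging 10.70 ± 0.32 in scrm-D;mute, 9.01 ± 0.17 in scrm-D, 6.53 ± 0.21 in spch and 7.23 ± 0.20 in WT, the rise in scrm-D (log2 difference 1.78 ± 0.17 SE, adjusted p = 3.2e-05) held in all 12 fits without 1 array. Its fall in spch (log2 difference −0.70 ± 0.17 SE, adjusted p = 0.0132) ended without WT replicate 4 (0.0555), without spch replicate 4 (0.0574) or without replicate 4 of every genotype (0.116). Under the 25S rRNA covariate the spch falls of AT1G33930, AT1G47410 and AT5G46230 gave adjusted p = 0.0540, 0.132 and 0.210.

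Among members higher in scrm-D alone, AT1G68500 had the largest rise of a named member and read 11.20, 11.38 and 11.63 in scrm-D;mute, 9.83, 10.28 and 9.29 in scrm-D, 6.54, 6.22 and 6.12 in spch and 6.72, 6.72 and 6.55 in WT. The scrm-D arrays stood between the scrm-D;mute and WT arrays without overlap, 8.81-fold above WT (log2 difference 3.14 ± 0.21 SE, adjusted p = 2.1e-06). AT3G28530 read 9.85, 9.74 and 9.35 in scrm-D;mute, 7.99, 8.22 and 6.99 in scrm-D, 5.23, 5.41 and 4.73 in spch and 5.63, 5.50 and 5.34 in WT, a difference of 2.24 ± 0.28 SE (adjusted p = 0.000188) in scrm-D. AT2G41190, of the amino acid transporter family, averaged 11.12 ± 0.14 in scrm-D;mute, 8.22 ± 0.65 in scrm-D, 6.37 ± 0.28 in spch and 6.44 ± 0.06 in WT and differed by 1.77 ± 0.25 SE (adjusted p = 0.000545). AT5G66440, AT5G67020, AT5G49170 and AT3G14760 rose by 1.93, 1.79, 1.22 and 1.88 in the same comparison (adjusted p = 1.05e-05, 0.000147, 0.00132 and 0.00367). AT5G67020 was called lower in spch in the fit without spch replicate 3 (0.0237). AT3G14760 had a spch difference of −1.02 ± 0.36 SE (adjusted p = 0.0667) that passed without WT replicate 4 (0.0263) or spch replicate 2 (0.0254) and when the replicate number was fitted as a block (0.00732). RSU1, a transcribed pseudogene, averaged 9.11 ± 0.21 in scrm-D;mute, 4.97 ± 0.12 in scrm-D, 4.43 ± 0.09 in spch and 4.22 ± 0.10 in WT and was called higher in scrm-D (adjusted p = 0.00134). Its means in scrm-D, spch and WT all lay under the background level, so that call does not give a change in level.

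Taking the WT mean as 0% and the scrm-D;mute mean as 100%, the scrm-D mean of a member stood at 15.4% in the median on the log2 scale, with quartiles at 4.90% and 30.1%. It passed 50% in 13 members, the named ones being AT1G68500 (66.2%), AT5G66440 (55.9%), AT3G28530 (54.0%), AT5G23400 (51.6%), AT1G47410 (51.6%), AT5G46230 (51.2%) and AT1G12845 (50.2%). The rule keeps scrm-D at least 1.5 below scrm-D;mute, so it holds this share below 100%. The bound is tighter where scrm-D;mute and WT lie closer together. The median and the count of 13 depend on that bound and are given as a description.

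The opposite case was a fall in spch with scrm-D near WT. AT5G62210, which encodes a protein like the embryo-specific ATS3, read 10.92, 11.05 and 11.07 in scrm-D;mute, 8.64, 9.12 and 8.79 in scrm-D, 6.77, 6.70 and 5.56 in spch and 8.66, 9.33 and 8.20 in WT. Here the scrm-D and WT arrays overlapped and all 3 spch arrays lay below them. The difference from WT was 0.12 ± 0.31 SE (adjusted p = 0.870) in scrm-D and −2.38 ± 0.31 SE (adjusted p = 0.000297) in spch, a 5.22-fold fall and the largest among all members. AT4G29270, an acid phosphatase of the HAD superfamily, read 11.15, 11.42 and 11.55 in scrm-D;mute, 8.13, 9.23 and 8.50 in scrm-D, 6.55, 6.64 and 6.44 in spch and 7.88, 7.96 and 8.20 in WT, and fell 2.77-fold in spch (log2 difference −1.47 ± 0.22 SE, adjusted p = 0.000738). It differed by 0.61 ± 0.22 SE (adjusted p = 0.0933) in scrm-D, a difference that passed without scrm-D replicate 2 (0.0184) and with the replicate block (0.0477). AT4G28230 and AT1G80690, whose product has a PPPDE peptidase domain, fell in spch by 1.11 and 0.80 (adjusted p = 0.00292 and 0.00308). Their scrm-D differences were 0.33 and 0.14, neither called.

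The 6 named members higher in spch than in WT included 4 that were also higher in scrm-D. AT1G32690 read 9.97, 9.92 and 9.82 in scrm-D;mute, 7.21, 7.27 and 6.91 in scrm-D, 7.20, 7.23 and 7.14 in spch and 6.68, 6.70 and 6.49 in WT, above WT in both scrm-D (log2 difference 0.51 ± 0.11 SE, adjusted p = 0.00983) and spch (log2 difference 0.57 ± 0.11 SE, adjusted p = 0.00421). Under the 25S rRNA covariate these calls ended, at 0.0978 and 0.0642. AT3G14560 and AT3G60520 were also higher in both, by 1.00 and 0.96 in scrm-D and by 0.86 and 0.73 in spch. Their spch calls ended without WT replicate 3 (0.0514 and 0.0532), and further without WT replicate 4 (0.0632) or spch replicate 2 (0.0763) for AT3G14560 and without spch replicate 4 (0.0680) for AT3G60520. The 25S rRNA covariate ended all 4 of these calls, with adjusted p from 0.0589 to 0.241. AT1G32780, of the zinc-type alcohol dehydrogenase family, averaged 7.66 ± 0.36 in scrm-D;mute, 5.86 ± 0.35 in scrm-D, 6.07 ± 0.39 in spch and 5.07 ± 0.17 in WT. It rose in spch by 1.00 ± 0.23 SE (adjusted p = 0.00944), while its scrm-D rise (log2 difference 0.79 ± 0.23 SE, adjusted p = 0.0392) ended in 7 of the 12 fits that left out 1 array, those without a WT array, scrm-D replicate 2 or 3, spch replicate 3 or scrm-D;mute replicate 3, with adjusted p up to 0.137. SIS, a salt-induced serine-rich protein, read 11.33, 10.64 and 9.87 in scrm-D;mute, 8.00, 8.05 and 7.18 in scrm-D, 7.86, 7.97 and 8.52 in spch and 7.49, 6.48 and 6.43 in WT. Its spch rise (log2 difference 1.32 ± 0.38 SE, adjusted p = 0.0280) ended without any 1 of WT replicates 3 and 4 and spch replicates 3 and 4 (0.0510 to 0.104), without replicate 4 of every genotype (0.0689) and under the 25S rRNA covariate (0.398). AT5G51030, of the short-chain dehydrogenase family, averaged 6.43 ± 0.15 in scrm-D;mute, 4.41 ± 0.09 in scrm-D, 4.90 ± 0.24 in spch and 4.46 ± 0.13 in WT, with the scrm-D, spch and WT means all under the background level. Of the 187 members it alone was called lower in scrm-D than in spch, a difference that cannot be read as a change in level (log2 difference −0.48 ± 0.13 SE, adjusted p = 0.0163), a call that ended without spch replicate 2 (0.0736), spch replicate 3 (0.0540) or scrm-D replicate 4 (0.0558). Its spch call against WT (log2 difference 0.44 ± 0.13 SE, adjusted p = 0.0381) ended without WT replicate 2 or 4 or spch replicate 2 or 3, with adjusted p up to 0.142, and gave 0.0757 in a fit of those genotypes alone and 0.192 under the 25S rRNA covariate.

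Sorted by what their products are known to do, 43 named members fell into 5 groups, made after the members were known. Genes in them that are not among the largest margins or lowest adjusted p-values were likewise chosen after their values were seen. The counts of calls in each group are read beside the shares of all probe sets, 6.76% higher in scrm-D and 9.93% lower in spch. The group tied to the stomatal lineage and cell polarity held SOL1, RR16 and ATBRXL2, of which 2 rose in scrm-D and 2 fell in spch. SOL1 (AT3G22760) encodes a CXC-domain DNA-binding protein related to TSO1 that acts on cell cycle and fate in the lineage. It read 10.93, 10.73 and 10.43 in scrm-D;mute, 8.28, 8.48 and 7.65 in scrm-D, 6.28, 6.05 and 5.79 in spch and 7.01, 7.32 and 6.52 in WT. The genotypes formed 4 steps without overlap, from scrm-D;mute at the top to spch at the bottom. In scrm-D, SOL1 stood 2.28-fold above WT (log2 difference 1.19 ± 0.24 SE, adjusted p = 0.00545), with adjusted p = 0.0632 under the 25S rRNA covariate. It was lower in spch (log2 difference −0.91 ± 0.24 SE, adjusted p = 0.0186), a call that ended without WT replicate 2 (0.0564), WT replicate 3 (0.0826) or spch replicate 4 (0.0742).

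RR16 (AT2G40670) encodes a type-A response regulator, a class that damps cytokinin signalling. It read 9.53, 9.17 and 9.23 in scrm-D;mute, 7.59, 7.50 and 6.97 in scrm-D, 4.60, 4.33 and 4.31 in spch and 5.82, 5.82 and 4.85 in WT. All spch values lay under the background level, and WT replicate 4 stood apart from the other WT arrays. RR16 was 3.63-fold higher in scrm-D (log2 difference 1.86 ± 0.24 SE, adjusted p = 0.000303) and at least 1.42-fold lower in spch (log2 difference −1.08 ± 0.24 SE, adjusted p = 0.00799). ATBRXL2 (AT3G14000) encodes a BREVIS RADIX-like protein that works with the polarity protein BASL in asymmetric division. It is the only named member on the list of 20 stomatal lineage genes, of which 5 had a single-gene probe set. SPCH and MUTE, also on that list, passed the margin but were left out by name. ATBRXL2 read 7.34, 7.62 and 7.23 in scrm-D;mute, 6.10, 5.84 and 5.44 in scrm-D, 5.05, 5.20 and 5.28 in spch and 4.89, 5.71 and 5.02 in WT. The scrm-D arrays overlapped with WT replicate 3, and the difference (log2 difference 0.59 ± 0.21 SE, adjusted p = 0.0903) passed without that array (0.0135) or without scrm-D replicate 4 (0.0472). In spch it differed by −0.03 ± 0.21 SE (adjusted p = 0.960).

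Cell cycle and cytoskeleton genes made a group of 10, of which 2 rose in scrm-D and 5 fell in spch. AT1G10690, which encodes a SIAMESE-related inhibitor of cyclin-dependent kinases, had the largest margin of the group and read 9.88, 9.87 and 9.46 in scrm-D;mute, 7.21, 7.27 and 6.61 in scrm-D, 5.18, 5.91 and 5.39 in spch and 5.49, 5.62 and 5.57 in WT. It rose 2.76-fold in scrm-D (log2 difference 1.47 ± 0.21 SE, adjusted p = 0.000525), where no array overlapped with WT, and spch overlapped with WT (log2 difference −0.07 ± 0.21 SE, adjusted p = 0.889). iqd21, an IQ67-domain protein of a family that binds calmodulin and microtubules, read 11.45, 11.56 and 11.16 in scrm-D;mute, 9.90, 9.76 and 9.39 in scrm-D, 7.68, 7.55 and 6.59 in spch and 8.70, 8.70 and 8.08 in WT. It rose 2.28-fold in scrm-D (log2 difference 1.19 ± 0.27 SE, adjusted p = 0.00987; 0.0564 under the 25S rRNA covariate) and fell 2.33-fold in spch (log2 difference −1.22 ± 0.27 SE, adjusted p = 0.00673; 0.0501 under that covariate).

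The other 4 that fell in spch bind mitotic chromosomes or move along microtubules. 3xHMG-box2, an HMG-box protein found on mitotic chromosomes, read 11.97, 11.55 and 11.18 in scrm-D;mute, 9.73, 10.47 and 9.70 in scrm-D, 8.97, 8.63 and 8.46 in spch and 9.83, 9.75 and 9.44 in WT. The spch arrays all lay below WT, a 1.98-fold fall (log2 difference −0.99 ± 0.24 SE, adjusted p = 0.0111), while scrm-D and WT overlapped (log2 difference 0.30 ± 0.24 SE, adjusted p = 0.496). Its relative 3xHMG-box1 averaged 8.01 ± 0.10 in scrm-D;mute, 6.13 ± 0.39 in scrm-D, 5.73 ± 0.20 in spch and 6.10 ± 0.34 in WT and differed by −0.37 ± 0.20 SE (adjusted p = 0.253) in spch. The kinesin genes AT5G23910, AT3G44050 and AT5G60930 fell in spch by 0.80, 0.81 and 0.69 (adjusted p = 0.00845, 0.0284 and 0.0280). AT5G23910 held in all 12 fits without 1 array. AT3G44050 lost its call without any 1 of WT replicates 2 and 3 and spch replicates 3 and 4 (up to 0.110), and AT5G60930 without WT replicates 2 or 3 or spch replicate 4 (up to 0.115). Under the 25S rRNA covariate AT5G60930 gave 0.137, and without replicate 4 of every genotype 0.118. In scrm-D the 3 kinesin genes differed by −0.02, 0.61 and 0.05 with none called, though AT3G44050 passed with the replicate number as a block (0.0157). IQD16, the TON1-recruiting family member TRM34 and the actin-binding NET3C had no call in either comparison, with differences of −0.15 to 0.45 in scrm-D and −0.44 to 0.20 in spch. TRM34 passed in scrm-D with the replicate block (0.0319) and without scrm-D replicate 4 (0.00708).

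Receptors, kinases and phosphatases numbered 13, with 4 higher in scrm-D and 5 lower in spch. EMS1 (AT5G07280), a leucine-rich repeat receptor kinase known for tapetum formation in the anther, read 10.16, 9.91 and 9.59 in scrm-D;mute, 7.92, 7.63 and 7.03 in scrm-D, 5.52, 5.51 and 5.19 in spch and 5.57, 5.97 and 5.42 in WT. Its scrm-D arrays stood between scrm-D;mute and WT without overlap, 3.67-fold above WT (log2 difference 1.88 ± 0.22 SE, adjusted p = 0.000149), and spch overlapped with WT. AT5G23400, a leucine-rich repeat protein, read 9.35, 9.52 and 9.21 in scrm-D;mute, 7.74, 8.11 and 7.60 in scrm-D, 5.46, 5.08 and 5.10 in spch and 6.27, 6.36 and 5.88 in WT. The 4 genotypes did not overlap, and it rose in scrm-D by 1.65 ± 0.17 SE (adjusted p = 4.83e-05) and fell in spch by 0.96 ± 0.17 SE (adjusted p = 0.00197). AT3G17640, also a leucine-rich repeat protein, averaged 9.80 ± 0.09 in scrm-D;mute, 7.45 ± 0.35 in scrm-D, 5.34 ± 0.28 in spch and 6.67 ± 0.12 in WT, with differences of 0.78 ± 0.18 SE (adjusted p = 0.00990) in scrm-D and −1.33 ± 0.18 SE (adjusted p = 0.000299) in spch. The scrm-D call ended under the 25S rRNA covariate (0.0650).

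AT1G75640, a leucine-rich repeat receptor-like kinase gene, read 8.39, 8.48 and 8.41 in scrm-D;mute, 5.57, 6.00 and 5.88 in scrm-D, 5.48, 5.50 and 5.28 in spch and 5.44, 6.24 and 5.48 in WT. Outside scrm-D;mute its arrays overlapped, with WT replicate 3 the highest, and neither scrm-D (log2 difference 0.09 ± 0.19 SE, adjusted p = 0.823) nor spch (log2 difference −0.30 ± 0.19 SE, adjusted p = 0.331) was called. The receptor-like kinase gene AT1G10850 fell in spch (log2 difference −0.65 ± 0.21 SE, adjusted p = 0.0463), but without WT replicates 2 or 3, spch replicates 2 or 4, scrm-D replicates 2 or 3 or scrm-D;mute replicates 2 or 3 the call ended, at up to 0.187, as it did with array medians centred (0.0564) or in a fit of those genotypes alone (0.0666). The related gene AT1G68400 had no call. Of the type 2C phosphatase genes, AT1G16220 had the largest margin of the group, averaging 8.74 ± 0.13 in scrm-D;mute, 5.44 ± 0.29 in scrm-D, 5.09 ± 0.09 in spch and 5.09 ± 0.14 in WT. Its scrm-D difference (log2 difference 0.35 ± 0.14 SE, adjusted p = 0.141) passed without scrm-D replicate 4 (0.0381). AT1G67820 fell in spch (log2 difference −0.62 ± 0.15 SE, adjusted p = 0.0113; 0.0534 without WT replicate 3), and AT1G79630 was called in neither. The AGC kinase gene AT3G44610 fell in spch (log2 difference −0.54 ± 0.16 SE, adjusted p = 0.0283) and lost that call without any 1 of the WT or spch arrays (up to 0.0825). The kinase gene AT1G74490 rose in scrm-D (log2 difference 0.63 ± 0.17 SE, adjusted p = 0.0279) and lost that call when WT replicate 3 or 4 or scrm-D replicate 2 or 3 was left out (up to 0.106). CLE27, a signalling peptide, averaged 7.41 ± 0.39 in scrm-D;mute, 5.54 ± 0.34 in scrm-D, 5.07 ± 0.29 in spch and 5.44 ± 0.12 in WT and had no call. SGP2, a small GTPase, read 9.42, 9.92 and 8.44 in scrm-D;mute, 7.67, 7.40 and 6.29 in scrm-D, 5.63, 5.55 and 5.17 in spch and 6.89, 6.36 and 6.18 in WT, and had no call against WT in spch (log2 difference −1.02 ± 0.38 SE, adjusted p = 0.0837) although those groups did not overlap. It passed there with the replicate block (0.00680) and without replicate 4 of scrm-D (0.0382), of scrm-D;mute (0.0394) or of every genotype (0.00961). SGP2 also passed there in a fit of spch and WT alone (0.0116) and under the 25S rRNA covariate (0.0286). Under the 25S rRNA covariate the calls of AT1G10850, AT1G67820 and AT1G74490 ended (0.106, 0.0676 and 0.281).

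**Figure D5:**
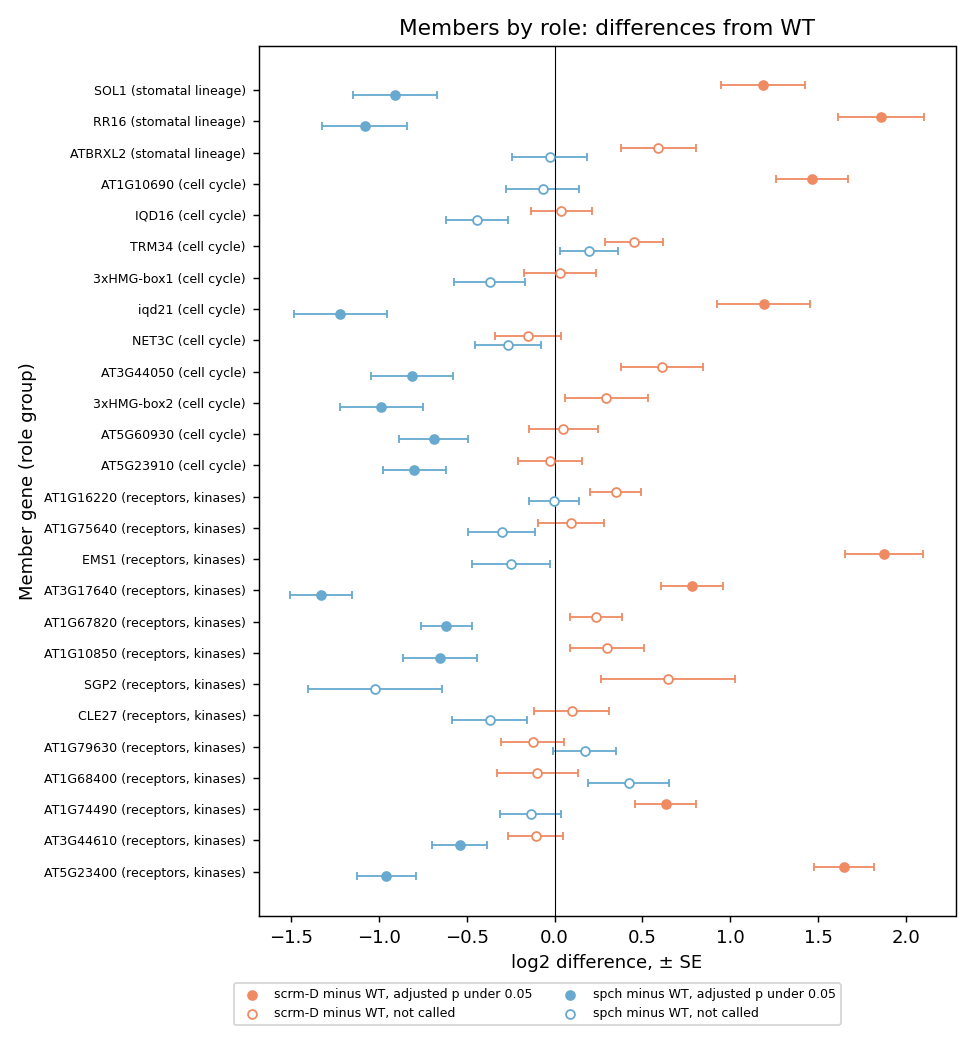
Differences from WT (log2, ± SE from the fit) for the 26 members of 3 role groups, with scrm-D in orange and spch in blue. Filled points passed at an adjusted p under 0.05. In these groups every called scrm-D difference (8) is above 0 and every called spch difference (12) below 0.

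Cell wall and secreted proteins made a group of 13, with 6 higher in scrm-D and 4 lower in spch. The polygalacturonase-like gene AT2G43870 read 7.95, 9.21 and 8.79 in scrm-D;mute, 5.17, 5.26 and 5.26 in scrm-D, 4.34, 4.41 and 4.44 in spch and 4.42, 4.33 and 4.40 in WT. WT and spch lay under the background level, and the rise in scrm-D (log2 difference 0.85 ± 0.23 SE, adjusted p = 0.0261) ended without any 1 of the WT or scrm-D arrays (0.0560 to 0.0756), without replicate 4 of every genotype (0.128) and under the 25S rRNA covariate (0.0823). A second polygalacturonase-like gene, AT1G10640, averaged 10.12 ± 0.16 in scrm-D;mute, 7.96 ± 0.76 in scrm-D, 6.66 ± 0.29 in spch and 7.56 ± 0.82 in WT and had no call, but passed as lower in spch with the replicate block (0.0146) and without WT replicate 4 (0.0269). AT5G19730, like pectinesterases, rose in scrm-D by 0.97 ± 0.27 SE (adjusted p = 0.0296) and lost that call without WT replicate 4 or scrm-D replicate 3 (up to 0.119) and under the 25S rRNA covariate (0.0845). With the replicate block it was also lower in spch (0.0308), as it was without WT replicate 4 (0.0492). AT2G19980 and PR-1-LIKE (AT2G19990), neighbours that encode secreted CAP-family proteins, differed in pattern. AT2G19980 averaged 9.96 ± 0.36 in scrm-D;mute, 7.17 ± 0.78 in scrm-D, 4.44 ± 0.07 in spch and 4.61 ± 0.26 in WT, with scrm-D at least 4.53-fold above WT (log2 difference 2.56 ± 0.31 SE, adjusted p = 0.000155) with spch and WT under the background level. PR-1-LIKE read 8.93, 9.24 and 9.21 in scrm-D;mute, 6.80, 6.92 and 6.70 in scrm-D, 5.44, 5.41 and 5.10 in spch and 6.88, 6.48 and 5.82 in WT, and was lower in spch (log2 difference −1.08 ± 0.21 SE, adjusted p = 0.00403) with no call in scrm-D (log2 difference 0.41 ± 0.21 SE, adjusted p = 0.252).

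AT2G22420, a class III peroxidase gene, averaged 8.86 ± 0.15 in scrm-D;mute, 7.03 ± 0.21 in scrm-D, 6.23 ± 0.49 in spch and 6.04 ± 0.26 in WT and rose in scrm-D (log2 difference 1.00 ± 0.22 SE, adjusted p = 0.00833; 0.0535 under the 25S rRNA covariate). AT4G25620, a hydroxyproline-rich glycoprotein gene, rose in scrm-D by 0.89 ± 0.20 SE (adjusted p = 0.00903), a call that also ended under that covariate (0.120). AT2G34510, which encodes a DUF642 cell wall protein, fell in spch by 1.13 ± 0.28 SE (adjusted p = 0.0146), which ended without spch replicate 4 (0.0548) and under the covariate (0.124). The exostosin family gene AT1G68470 fell in spch by 1.16 ± 0.26 SE (adjusted p = 0.00751). Of the 4 transcription factor genes, the bHLH gene AT4G00870 and the B3-domain genes AT3G06220, AT5G25470 and AT5G18090, none was called by limma in either comparison. Their differences ran from 0.06 to 0.70 in scrm-D and from −0.25 to 0.05 in spch. In the fit with the replicate number as a block, 2 of them, AT3G06220 and AT5G18090, passed in scrm-D (0.0382 and 0.0242). AT3G06220 also passed without scrm-D replicate 4 (0.0226) or scrm-D;mute replicate 2 (0.0320). The remaining members with the 25 largest margins were called in neither comparison: AT1G69160, at 10.44 ± 0.60 in scrm-D;mute, 7.33 ± 0.65 in scrm-D, 7.67 ± 0.16 in spch and 7.77 ± 0.33 in WT, AT3G12470, a ribonuclease H-like neighbour of the member AT3G12460, at 7.70 ± 0.11 in scrm-D;mute, 5.10 ± 0.15 in scrm-D, 4.87 ± 0.29 in spch and 4.90 ± 0.19 in WT, and AT4G07510, at 6.89 ± 0.41 in scrm-D;mute, 4.21 ± 0.02 in scrm-D, 4.17 ± 0.07 in spch and 4.00 ± 0.09 in WT.

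The pathway lists named 141 loci, of which few had a single-gene probe set. Only those are called measured here, and the others may lie among the probe sets that are unlisted or paired with several genes. Their calls are read beside the shares of all probe sets given above, 6.76% higher and 7.39% lower in scrm-D and 9.6% higher and 9.93% lower in spch. In the stomatal lineage list, 5 of 20 were measured, with 3 higher in scrm-D (SPCH, MUTE and FAMA) and 2 lower in spch (SPCH and FAMA). Under the 25S rRNA covariate the SPCH call in scrm-D (0.0540) and the FAMA call in spch (0.0825) ended. EPFL9, a secreted peptide that promotes stomatal development, differed by −1.23 in scrm-D (adjusted p = 0.0596). It passed as lower there with the replicate block (0.000878), without replicate 4 of every genotype (0.000962), in a fit of those genotypes alone (0.0254), with the filter on dim probe sets (0.0395), and without replicate 4 of spch (0.0189) or of scrm-D;mute (0.0435).

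Of 27 genes of G2 and mitosis, the 3 measured were the Aurora kinase genes, which fell in spch and were not called in scrm-D. Their scrm-D;mute means exceeded the next highest genotype by 0.73 to 0.96, short of the margin. The 2 measured genes of DNA replication, PRL and CENH3, fell in spch. For AUR3 that call ended without WT replicates 3 or 4 or spch replicates 2 or 4 (up to 0.0825), for PRL without spch replicate 4 (0.0544), and for CENH3 without WT replicate 3 or spch replicate 4 (up to 0.0721). Under the 25S rRNA covariate the 3 genes gave 0.0816, 0.0570 and 0.152, and without replicate 4 of every genotype AUR3 and CENH3 gave 0.0971 and 0.0928.

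No named member came from the lists of guard cell, shoot meristem, auxin, photosynthesis or root genes. Of these lists 3 of 12, 1 of 15, 3 of 12, 5 of 8 and 2 of 9 genes were measured. Whether the 84 unlisted members include other genes of these lists is not known. The 2 measured root genes, EXPA7 and EXPA18, carry an EXPA name, which the rule leaves out, so neither could be a member. Their margins were −0.63 and −0.38. The guard cell genes FAMA and BLUS1 were higher in scrm-D and lower in spch, and the spch call of BLUS1 ended without WT replicate 2 (0.0810) or 4 (0.0525), in a fit of those genotypes alone (0.0652) and under the 25S rRNA covariate (0.256). GC1 was called in neither comparison, at 2.03 ± 1.08 SE (adjusted p = 0.270) in scrm-D and −2.78 ± 1.08 SE (adjusted p = 0.0976) in spch. The fit shares 1 estimate of the spread over all arrays, so the wide spch spread enters both. GC1 read 8.98, 8.21 and 6.84 in scrm-D;mute, 12.54 to 12.86 in scrm-D, 9.70, 9.64 and 4.31 in spch and 10.38 to 10.86 in WT. It passed as higher in scrm-D without spch replicate 4 (0.00393), in a fit of those genotypes alone (8.81e-05) and without replicate 4 of every genotype (0.000234), and as lower in spch with the replicate block (0.0463), without spch replicate 2 (0.0450) or 3 (0.0460) and without replicate 4 of every genotype (0.0312). The photosynthesis genes LHCB4.2, PRK and SBPASE were lower in scrm-D. LHCB4.2 passed as lower in spch with the replicate block (0.0101), in a fit of those genotypes alone (0.0237) and without replicate 4 of scrm-D (0.0443) or of scrm-D;mute (0.0371).

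Of the auxin genes, IAA29 was lower in scrm-D and in spch and GH3.3 in spch. The GH3.3 call ended without WT replicate 2 or 3, any 1 of the spch arrays or scrm-D;mute replicate 3 (up to 0.163) and under the covariate (0.333). GH3.5 had no call against WT, but passed as lower in scrm-D under the covariate (0.00905) and in a fit of scrm-D and WT alone (0.0449). The root genes EXPA7 and EXPA18 were lower in spch, and that of EXPA7 was lost when any 1 WT or spch array or scrm-D;mute replicate 3 was left out (up to 0.148), without replicate 4 of every genotype (0.166) and under the covariate (0.418). The shoot meristem gene had no call. None of the 15 epidermis and cuticle genes or 8 D-type cyclin and G1 genes had a single-gene probe set, so they were not analysed here.

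The arrays did not contribute alike. Within scrm-D;mute, replicate 4 read lowest for 118 of 187 members, with a median deviation of −0.16 from the genotype mean. Replicate 4 was also the lowest array for 134 members in scrm-D, 104 in spch and 93 in WT. Without replicate 4 of every genotype, a setting added once the data had been seen, 77 members were above WT in scrm-D, and 8 were higher and 49 lower in spch.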

How the data were processed

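The 12 arrays measured RNA copied with an oligo-dT primer. The deposited table holds log2 values of each probe set on each array, spanning 3.13 to 14.63. The authors had already normalized it: RMA and limma are named, with no version, in the submitters' processing notes. RMA makes array distributions alike, so a difference is relative to a total held equal.

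Groups came from the titles; the description field given with scrm-D names the double mutant instead. A different bacterial control transcript was present in each labelled genotype, which separates the 4 titles on all 12 arrays. The labels call the replicates (numbers 2, 3 and 4) biological but say nothing of how they were grown, so a p-value measures only the spread between the samples at hand.

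After 64 control probe sets were left out, the deposited values went unchanged into limma 3.58.1 (R 4.3.3), which estimated 1 mean per genotype in a single model of the 12 arrays. Its p-values are two-sided and were adjusted by Benjamini-Hochberg over 22746 probe sets. On simulated data with independent noise, 66 or 67 probe sets were changed at each size of change. There 86.6% of changes of 1.0 were recovered for scrm-D against WT and 77.6% for spch against WT. The deposited data gave 3220 and 4442 calls, and the adjustment depends on how many probe sets change. The simulated rates therefore do not carry over to these fits. The background level is the 95th percentile of bacterial control values under 8. A fold is written as at least where all arrays of the dimmer genotype lie under the background level, and is then taken against that level.

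Named genes are the 25 largest margins, the 10 lowest adjusted p-values per direction of scrm-D and of spch against WT, members on a list and the genes at the threshold. The members and the 10 lists were chosen with earlier results of these data known. Roles of genes without a symbol are background, not read from the files. Names and gene neighbours follow the TAIR10.1 annotation, matched for 13436 of 13513 single-gene probe sets. The sources used here name no genome build, so coordinates are left out, and promoter motifs were not analysed here.

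Deviations from the genotype mean correlated between arrays of the same number with r = 0.103, 0.299 and 0.214 for scrm-D and WT and 0.138, 0.173 and 0.174 for spch and WT, all over the limit of 0.1, so the numbers count as pairs there, from the values alone. Of unlike number, spch replicate 2 and WT replicate 3 also passed that limit (r = 0.102). The calls given above come from the fit without pairs, with 72 and 59 members called. With the replicate number as a block they were 84 and 78. For scrm-D and spch they were 0.0338, 0.134 and 0.360, which does not count as pairing.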

Additional observations from a re-analysis of the deposited data

Results flagged for a closer look

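On scrm-D;mute replicate 4, the 6 probe sets for the bacterial phe transcript, which was spiked only into the scrm-D samples, read 6.61, 4.41, 4.45, 5.83, 4.72 and 4.88. Each was above the 8 other arrays that lacked the spike, by 0.35 to 1.53, while the scrm-D arrays read 12.70 to 13.99. The same array was the lowest scrm-D;mute array for 118 of 187 members. Applying the membership rule without it gave 211 members. Of the 187 members, 74 were called in scrm-D against WT, 61 in spch against WT and 120 between scrm-D and spch in the fit without this array, in place of 72, 59 and 115.

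The 25S rRNA control probe set, which was used above only as a covariate, averaged 9.62 in scrm-D;mute, 9.60 in scrm-D and 9.63 in spch, against 7.11 in WT. On scrm-D;mute replicate 4 it read 6.96, near the WT arrays. The member calls with this value as a covariate are given beside the counts.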

How the results depend on the processing

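The count of members higher in scrm-D than in WT (72) was 59 to 75 without 1 array, 47 with the 25S rRNA value as a covariate and 45 with a 2-fold minimum. The count called in spch against WT (59) was 33 to 63 without 1 array, 34 with the covariate and 23 with a 2-fold minimum. Between scrm-D and spch (115) it was 101 to 120 without 1 array and 69 with a 2-fold minimum. With the replicate number as a block the 3 counts were 84, 78 and 127, with 1 member then lower in scrm-D than in WT, and all calls made without the block were kept. The member medians kept their direction, at 0.35 to 0.50 and −0.27 to −0.18 without 1 array. A margin of 1.0 in place of 1.5 gave 370 members and one of 2.0 gave 99. Asking the lowest scrm-D;mute array to exceed the highest other array by 1.5 gave 89, and leaving out 1 array gave 179 to 211. Of 2640 recomputed results of the 44 named genes, 2552 kept their side of the threshold, 72 lost a call, 16 gained one and none reversed. The planned promoter motif count was not run. With 3 arrays per genotype, changes of 0.5 were recovered in 35.8% (scrm-D against WT) and 26.9% (spch against WT) of simulated cases. Those rates belong to the simulated setting, where far fewer probe sets changed than were called in the data. Values under the background level of 4.99 have no order.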
